A study of Mustela putorius furo with 10 samples.

Results

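The genes described here are the receptors that sense microbes and cell damage, the adaptors and kinases that carry their signal, and the NF-kB proteins with their inhibitors. They were chosen by name, as a list of 60 gene symbols, of which 41 matched a target sequence on the array and 39 were bright enough to be tested, out of 26303 genes tested in all. The other 19 may be on the array under accessions that the gene table used here does not pair with a symbol, so that no match does not mean that a gene is absent from it. Ferret peripheral blood mononuclear cells (PBMC), the lymphocytes and monocytes of blood, came from 6 control males kept at 22 °C and 4 males kept at 4 °C for 1 week, all aged 3 months. Cells were isolated on a Ficoll gradient, and the cold animals were housed singly, while the housing of the controls is not given in the sources used here. The comparison asks how a week of cold changes expression in blood cells. RNA of each ferret, labelled with the dye Cy3, was hybridised to its own array together with 1 Cy5-labelled pool of RNA from PBMC and other ferret tissues. Every value below is the log2 ratio of ferret RNA to that pool, or the difference of its mean between cold and control.

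Toll-like receptors at the cell surface and in endosomes recognise microbial products and recruit adaptors such as MYD88, which assemble IRAK kinases and TRAF ubiquitin ligases. NOD receptors and TNF receptors reach the same kinase step through RIP kinases. The IKK complex then marks IkB proteins for destruction, which frees NF-kB dimers to enter the nucleus, and the genes they switch on include their own inhibitors NFKBIA and TNFAIP3. In blood, monocytes and neutrophils are rich in many of these sensors.

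Of the 39 tested genes, 33 had a higher mean ratio in cold and 6 a lower one, with a median log2 change of 0.19 and a range from -0.21 to 0.90. Over all genes tested, the change was above 0 in 48% and the median was -0.01. The number above 0 depended on the scaling, since under median centring of the arrays in place of loess 14 of the 39 were above 0 with a median of -0.30, where the median of all genes was itself -0.43, and 24 of the 39 lay above that median. The share of the 39 above 0, 84.6% here, was 71.8% with Cy3 alone (all genes 42.9%), 64.1% in the deposited value table (all genes 50.7%), 59% with the processed signals of the scanner software (all genes 38.5%) and 35.9% with median centring (all genes 22.9%). With each array also centred on the median of all genes, it was 82.1% for the processed signals and 59% for median centring. Against the main processing, the sign of the change turned for 12 of the 39 with the processed signals, for 14 in the deposited value table, for 9 with Cy3 alone and, relative to all genes, for 16 with median centring, which bears on each count by role below. No single gene passed Benjamini-Hochberg adjustment in limma at 0.05, here or among all genes, whose lowest adjusted p was 0.0576. At an unadjusted limma p under 0.01, the threshold of the study's methods, 4 of the 39 passed (10.3%), all higher in cold (with median centring, and each array then centred on the median of all genes, NLRP3, TRAF3 and IRAK4 passed as higher), and 14 passed at 0.05 (35.9%). Of all genes, 8.64% passed the stricter threshold, 5.21% being higher and 3.43% lower, and 24.7% passed at 0.05, so that the count of 4 is near the background. In none of the 39 were the cold arrays all above or all below the control arrays, while 5.22% of all genes had such groups.

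**Figure D1:**
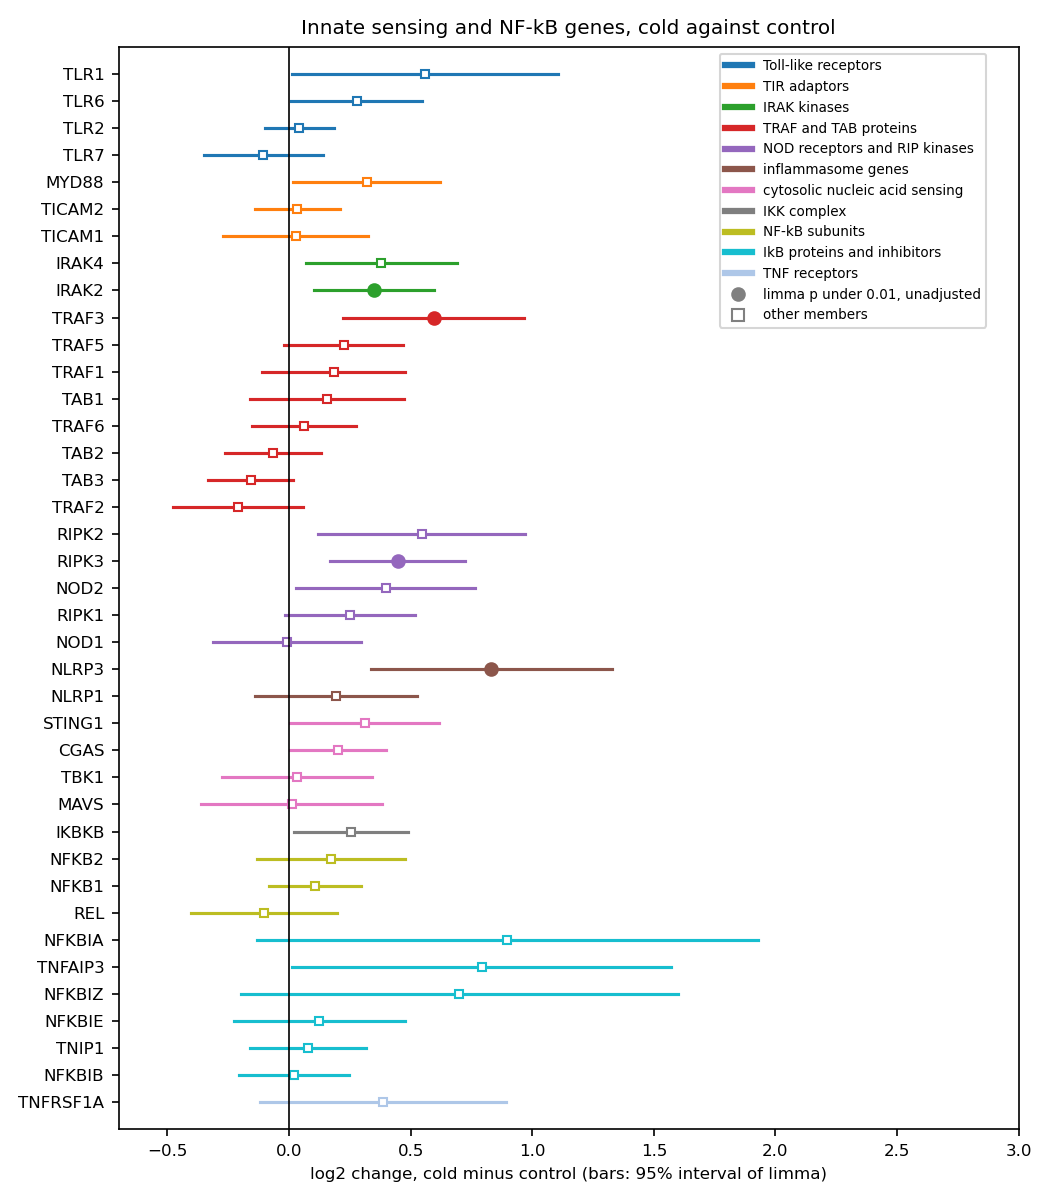
Log2 change of the 39 tested genes, cold minus control, grouped by role, with the 95% interval from limma over 6 control and 4 cold arrays. Filled circles mark NLRP3, RIPK3, TRAF3 and IRAK2, which had an unadjusted limma p under 0.01; the widest intervals are those of NFKBIA, NFKBIZ and TNFAIP3.

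Some facts of the arrays bear on these values. The reference channel was brighter in cold, with 27.0 to 54.9% of Cy5 spots well above background in control and 40.5 to 64.0% in cold, while for Cy3 the shares were 50.4 to 63.5% and 58.0 to 61.1%. Lymphocyte and monocyte markers were bright enough to be tested, and so were platelet markers. So too were markers of neutrophils and red cells, most of which a Ficoll gradient should remove. All 8 tested neutrophil markers (of 16 listed) had a higher mean in cold, and the mean log2 ratio over the 8 was 0.45 to 1.12 in control and 1.39 to 1.81 in cold. The groups did not overlap for 2 of the 8, higher in cold, nor for 1 T cell and 1 erythroid marker, lower in cold. Among all genes 5.22% had such groups. Of 9 tested monocyte markers (12 listed), 7 were higher, with a mean ratio of 0.13 to 0.41 in control and 0.16 to 1.10 in cold. Of 10 tested T cell markers (14 listed), 9 were lower, with a mean ratio of -0.09 to 0.25 in control and -0.76 to -0.02 in cold. For B cells 8 of 10 tested markers (12 listed) were lower (-0.22 to 1.25 in control, 0.15 to 0.62 in cold), and for platelets 6 of 6 (9 listed) were higher (-0.04 to 1.36 against 0.84 to 1.82). Erythroid markers were lower in 4 of 4 tested (8 listed), at 0.18 to 1.12 in control and -0.85 to -0.06 in cold, and NK and cytotoxic markers were higher in 4 of 5 (10 listed), at 0.21 to 0.78 and 0.08 to 1.04. The part of these shifts in the results was not tested, and in such bulk RNA more cells of a type and more RNA per cell cannot be told apart.

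Among the Toll-like receptors, 3 of 4 tested genes had a higher ratio in cold and none passed at 0.01. TLR1, which pairs with TLR2 to recognise bacterial lipopeptides, had a log2 ratio in control of 0.24 at lowest, 0.77 at the median and 1.10 at highest, and in cold of 1.34, 0.85, 2.10 and 0.85. Cold replicates 1 and 3 lay above every control, and the other cold arrays lay inside the control range. The change was 0.56 ± 0.25 (SE), with a limma p of 0.0454 and an exact permutation p of 0.0857. It was 0.29 without cold replicate 3, 0.17 with the processed signals, 0.26 with Cy3 alone and 0.28 in the deposited value table.

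TLR6, the other partner of TLR2, lay between -0.18 and 0.06 in control (median -0.09) and at 0.46, -0.06, 0.46 and -0.05 in cold. The same cold replicates, 1 and 3, stood above the controls, and the change was 0.28 ± 0.12 (SE, limma p = 0.0442, exact permutation p = 0.0524). TLR2 itself differed by 0.04, with a 95% interval from -0.10 to 0.18, and was dim: 2 of its 5 kept probes were higher. Its value changed with the filter, to 0.13 without one, where it passed 0.01, and to -0.16 under both stricter filters, and it was 0.69 in the deposited value table. TLR7, the endosomal receptor for single-stranded RNA, differed by -0.11, with an interval from -0.35 to 0.14. TLR5 matched a sequence but was above background on 1 cold array and on 0 control arrays, and was not tested. TLR3, TLR8, TLR9 and TLR10 were matched to no sequence.

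The adaptor MYD88, shared by most Toll-like receptors and by the interleukin-1 receptor, ran from 0.61 to 1.07 in control (median 0.80) and stood at 1.10, 1.00, 1.55 and 0.93 in cold. Cold replicates 1 and 3 again exceeded the controls. The change was 0.32 ± 0.14 (SE, limma p = 0.0404, exact permutation p = 0.0571), and all 12 probes of MYD88 were higher in cold. Its direction was turned in the deposited value table (-0.0049) and under median centring (-0.07 relative to all genes). TICAM1 and TICAM2, which serve TLR3 and TLR4, differed by 0.03 each, with intervals from -0.27 to 0.33 and from -0.14 to 0.21. TIRAP was matched to no sequence.

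Both tested IRAK kinases were higher in cold. IRAK2, which sustains signalling in the complex that MYD88 nucleates, ran from 0.23 to 0.53 in control (median 0.34) and stood at 0.74, 0.43, 1.02 and 0.67 in cold. All cold arrays were above the control median, and cold replicate 2 lay inside the control range. The change was 0.35 ± 0.11 (SE), or 1.28-fold, with a limma p of 0.00961 (adjusted p = 0.114) and an exact permutation p of 0.0143. It was 0.03 with the processed signals of the scanner software and 0.12 with Cy3 alone, and passed 0.01 in 3 of 22 alternatives.

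IRAK4, the first kinase of that complex, ran from 0.24 to 0.69 in control (median 0.37) and stood at 0.71, 0.43, 1.19 and 0.71 in cold. Cold replicates 1 and 4 were only just above the highest control. The change was 0.38 ± 0.14 (SE, limma p = 0.0213, exact permutation p = 0.019), and it was -0.02 with the processed signals. It was 0.40 with Cy3 alone, 0.67 relative to all genes under median centring and 0.61 in the deposited value table. IRAK4 passed 0.01 in 4 of 22 alternatives, Cy3 alone and median centring relative to all genes among them. IRAK1 and IRAK3 were matched to no sequence.

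TRAF and TAB proteins were divided, with 5 of 8 higher and 3 lower and a median change of 0.11. TRAF3, a ubiquitin ligase that links sensors to TBK1 and restrains the non-canonical NF-kB route, was the only one past 0.01. It ran from 0.17 to 0.66 in control (median 0.35) and stood at 1.33, 0.44, 1.24 and 0.86 in cold. Cold replicates 1, 3 and 4 were above all controls, and cold replicate 2 was inside their range. The change was 0.60 ± 0.17 (SE), or 1.51-fold, with a limma p of 0.00474 (adjusted p = 0.0942) and an exact permutation p of 0.0143. All 8 probes of TRAF3 were higher in cold, and the change stayed above 0 in all 22 alternatives, between 0.33 and 0.77, and passed 0.01 in 14. It did not pass with the processed signals (0.33), with Cy3 alone (0.37) or in the deposited value table (0.66).

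None of the other TRAF and TAB genes passed 0.05. TRAF5 differed by 0.22, TRAF1 by 0.18 and TRAF6, the ligase downstream of IRAK kinases, by 0.06, with an interval for TRAF6 from -0.15 to 0.27. The reference spots of TRAF5 were well above background in 0% of cases in either group, and with Cy3 alone its change was -0.21. TAB1, a partner of the kinase TAK1, differed by 0.16. On the lower side, TRAF2, which serves TNF receptors, differed by -0.21 (interval -0.48 to 0.06), TAB3 by -0.16 and TAB2 by -0.07. TAB3 was below the control median on all 4 cold arrays (limma p = 0.0706, exact permutation p = 0.0381). Its change was -0.48 with the processed signals, but 0.005 with Cy3 alone, 0.04 relative to all genes under median centring and 0.09 in the deposited value table. TRAF2 was above the control median on cold replicate 4 alone, and without that array it differed by -0.34 and passed 0.01 as lower in cold.

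Of the NOD receptors and RIP kinases, 4 of 5 were higher. RIPK3, the kinase of necroptosis, ran from 0.56 to 1.10 in control (median 0.68) and stood at 1.27, 0.93, 1.36 and 1.29 in cold. Cold replicates 1, 3 and 4 were above every control. The change was 0.45 ± 0.13 (SE), or 1.36-fold, with a limma p of 0.0045 (adjusted p = 0.0934) and an exact permutation p of 0.019, and all 12 of its probes were higher. With the processed signals the change was -0.07.

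RIPK2, the kinase that NOD1 and NOD2 use, ran from 0.26 to 0.76 in control (median 0.53) and stood at 0.72, 0.57, 1.65 and 1.28 in cold. Here cold replicates 3 and 4 carried the difference, and the other cold arrays lay among the controls. The change was 0.54 ± 0.19 (SE, limma p = 0.017, exact permutation p = 0.0286). Without cold replicate 3 it was 0.35, with the processed signals 0.18 and with Cy3 alone 0.33.

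NOD2, a sensor of muramyl dipeptide from bacterial walls, ran from 0.08 to 0.57 in control (median 0.38) and stood at 1.10, 0.31, 1.06 and 0.55 in cold. Cold replicates 1 and 3 were above the controls, and cold replicate 2 was below the control median. The change was 0.40 ± 0.17 (SE, limma p = 0.0375, exact permutation p = 0.0619). NOD1 differed by -0.0079 (interval -0.31 to 0.30) and RIPK1 by 0.25 (interval -0.02 to 0.52). With Cy3 alone NOD1 changed by 0.31 and passed 0.01 as higher in cold. Its change was 0.12 with the processed signals, 0.44 relative to all genes under median centring and 0.41 in the deposited value table. RIPK1 changed by -0.04, -0.07 and -0.08 under the same settings in that order, and by 0.09 with Cy3 alone.

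NLRP3, the sensor of the inflammasome that activates caspase-1 after cell damage, had the lowest p of the whole group. Its log2 ratio ran from 0.33 to 1.28 in control (median 0.65) and stood at 1.90, 1.00, 1.99 and 1.20 in cold. All 4 cold arrays were above the control median, but only cold replicates 1 and 3 were above control replicate 5, the highest control. The control mean was 0.69 ± 0.32 (SD, n = 6), against 1.52 ± 0.49 (SD, n = 4) for cold. The change was 0.83 ± 0.23 (SE), or 1.78-fold, with a limma p of 0.00356 (adjusted p = 0.0885) and an exact permutation p of 0.0143.

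All 8 probes of NLRP3, from 2 target sequences, were higher in cold. In the reference channel its spots were well above background in 30.2% of cases in control and 76.6% in cold. With Cy3 alone, which does not use the pool, the change was 0.72 (limma adjusted p = 0.0894). The change of NLRP3 kept its sign in all 22 alternatives, between 0.35 and 1.00, and passed 0.01 in 18 of them. NLRP1, another inflammasome sensor, differed by 0.19 (interval -0.14 to 0.52). NLRC4, NLRC5, AIM2, PYCARD, CASP1, CASP4 and GSDMD were matched to no sequence, so that only sensors of the inflammasome could be described.

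**Figure D2:**
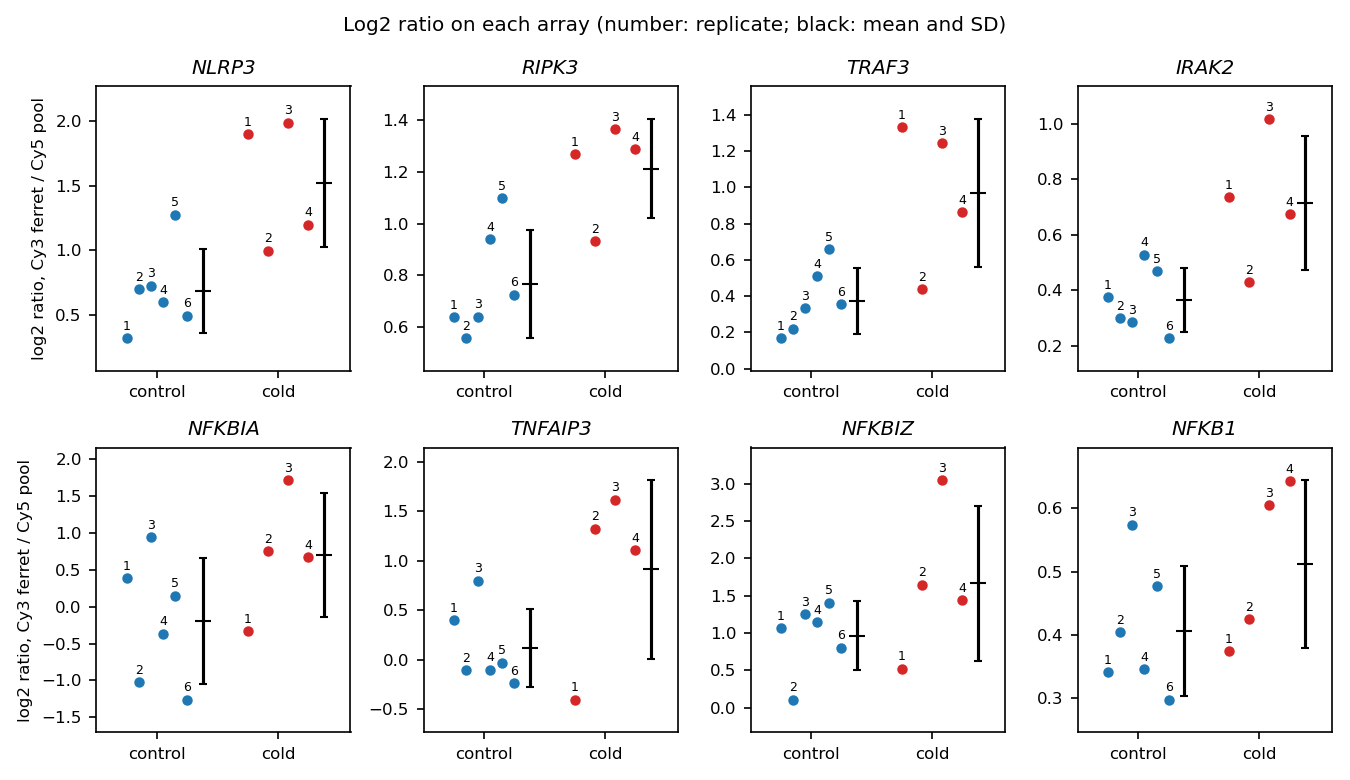
Log2 ratio of ferret RNA (Cy3) to the reference pool (Cy5) on each of the 10 arrays for 8 genes, numbered by replicate, with the mean and SD of each group in black. For NLRP3, RIPK3, TRAF3 and IRAK2 cold replicate 2 is the lowest cold array, and for NFKBIA, TNFAIP3 and NFKBIZ cold replicate 1 is; the vertical scale differs between genes.

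The calls of these 4 genes changed when single arrays were left out. Over the 10 omissions of 1 array, NLRP3 stayed past 0.01 in 8, TRAF3 in 6, RIPK3 in 4 and IRAK2 in 2. Without cold replicate 3, none of the 39 genes passed, and NLRP3 changed by 0.68, RIPK3 by 0.40, TRAF3 by 0.50 and IRAK2 by 0.25 (adjusted p in limma of 0.221, 0.228, 0.235 and 0.263). Without cold replicate 1, RIPK2, STING1 and TNFAIP3 passed in place of these 4. Without control replicate 1 or control replicate 2 only NLRP3 passed, without control replicate 3 NLRP3 and TRAF3, and without control replicate 6 IRAK2 alone was lost. Over all 22 alternatives the change lay between -0.07 and 0.54 for RIPK3, -0.016 and 0.67 for IRAK4, -0.04 and 0.33 for IKBKB, 0.26 and 0.71 for NOD2, -0.07 and 0.39 for MYD88, 0.07 and 0.80 for TLR6, and -0.34 and 0.43 for STING1.

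Without control replicate 4, NLRP3, RIPK3, TRAF3 and IRAK2 passed 0.01 as in the main processing. The remaining omissions differed. Without cold replicate 2, 7 of the 39 genes passed 0.01, when 12.9% of all genes did, and NLRP3, RIPK3, TRAF3 and IRAK2 also passed adjustment in limma (adjusted p of 0.0387, 0.0436, 0.0246 and 0.0448), as did 1272 of the 26303 genes, with changes of 1.00, 0.54, 0.77 and 0.44. Without control replicate 5, RIPK3 and NLRP3 passed adjustment, among 633 of all genes, IRAK4 passed 0.01 and IRAK2 did not. Without cold replicate 4, NLRP3 and TRAF3 passed 0.01 with TRAF2, and RIPK3 and IRAK2 did not.

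Of 4 tested genes of cytosolic nucleic acid sensing none passed 0.01. The 4 changes were above 0, as were 48% over all genes, with a median of 0.12, and MAVS with Cy3 alone and STING1 under the scalings given next were below 0. STING1, the adaptor that receives the cyclic dinucleotide made by CGAS, ran from 0.79 to 1.38 in control (median 1.05) and stood at 1.02, 1.43, 1.67 and 1.32 in cold. Cold replicate 1 was below the control median, and the other cold arrays were above it. The change was 0.31 ± 0.14 (SE, limma p = 0.0466, exact permutation p = 0.0857). Its sign was turned under median centring (-0.34 relative to all genes) and in the deposited value table (-0.18).

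CGAS, the DNA sensor itself, ran from -0.05 to 0.28 in control and stood at 0.37, 0.20, 0.46 and 0.35 in cold, with a change of 0.20 ± 0.09 (SE, limma p = 0.048, exact permutation p = 0.0381). Its reference spots were well above background in 0% of cases in either group, and its change was 0.98 with the processed signals, 0.81 relative to all genes under median centring, 0.77 in the deposited value table and 0.08 with Cy3 alone. MAVS, the mitochondrial adaptor for RNA sensors, differed by 0.01 (interval -0.36 to 0.38) and the kinase TBK1 by 0.03 (interval -0.28 to 0.34). Both were dim: Cy3 spots of MAVS were well above background in 41.7% of cases in control and 22.9% in cold, and TBK1 kept 1 of 4 probes. Relative to all genes under median centring MAVS changed by 0.54 and TBK1 by 0.62, and in the deposited value table by 0.57 and 0.69.

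Of the IKK complex only IKBKB, the kinase that phosphorylates IkB proteins, was tested. It ran from 0.38 to 0.71 in control (median 0.53) and stood at 0.91, 0.57, 1.00 and 0.66 in cold. Cold replicates 1 and 3 were above the controls. The change was 0.25 ± 0.11 (SE, limma p = 0.0362, exact permutation p = 0.0429), and it was -0.04 with the processed signals. CHUK was above background on 1 control array and was not tested, and IKBKE and IKBKG were matched to no sequence.

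None of the 3 tested NF-kB subunits passed 0.05. NFKB1, the precursor of p50, changed by 0.11 (interval -0.08 to 0.29), NFKB2, the precursor of p52, by 0.17 (interval -0.13 to 0.48), and REL by -0.10 (interval -0.40 to 0.20). The intervals leave room for changes of up to 0.48 on the log2 scale. RELA and RELB were matched to no sequence. TNFRSF1A, the main receptor for TNF, differed by 0.39 (interval -0.12 to 0.89). Its change was 0.44 with Cy3 alone, but -0.23 relative to all genes under median centring and -0.08 in the deposited value table. TNFRSF1B was matched to no sequence.

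**Figure D3:**
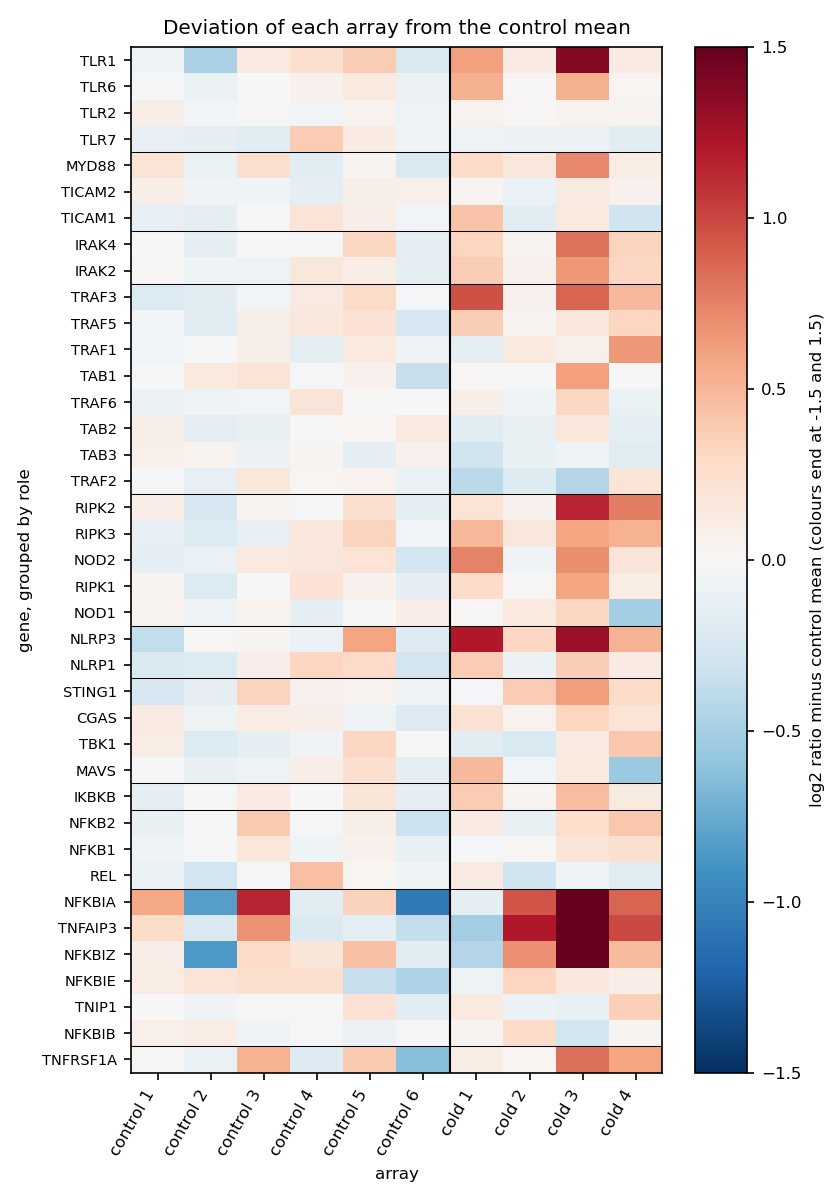
Log2 ratio of each array (columns) less the mean of the 6 control arrays, for the 39 tested genes (rows) grouped by role with lines between the roles. Red is above and blue below the control mean, colours end at -1.5 and 1.5, and cold replicate 3 is red in most rows.

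The 6 IkB proteins and inhibitors were all higher in the mean, with a median change of 0.41, and none passed 0.01, but NFKBIB, NFKBIE and TNIP1 were lower with the processed signals, in the deposited value table and, relative to all genes, under median centring, and NFKBIB and TNIP1 also with Cy3 alone. NFKBIA, TNFAIP3 and NFKBIZ, which stood out after their values were seen, had the widest spread. NFKBIA encodes IkB-alpha, which holds NF-kB in the cytoplasm. In control it ran from -1.26 to 0.95 (median -0.11), and in cold it stood at -0.33, 0.75, 1.72 and 0.67. The groups overlapped broadly, and the change was 0.90 ± 0.47 (SE, limma p = 0.0812, exact permutation p = 0.143, interval -0.13 to 1.93). It was 0.56 without cold replicate 3, 1.24 without cold replicate 1, 0.41 in the deposited value table and 0.23 relative to all genes under median centring. Its SD in control, 0.85, was higher than that of 99.6% of all genes.

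TNFAIP3, which encodes A20, an enzyme that edits ubiquitin chains and ends the signal, ran from -0.24 to 0.80 in control (median -0.06) and stood at -0.40, 1.33, 1.62 and 1.11 in cold. Cold replicate 1 was below every control, and the other 3 cold arrays were above every control. The change was 0.79 ± 0.35 (SE, limma p = 0.0467, exact permutation p = 0.0905), and without cold replicate 1 it was 1.23 (limma adjusted p = 0.0741) and without cold replicate 3 it was 0.56 (limma adjusted p = 0.436).

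NFKBIZ, a nuclear IkB protein that acts on selected promoters, ran from 0.11 to 1.41 in control (median 1.11) and stood at 0.52, 1.65, 3.05 and 1.45 in cold. Its cold arrays had the same order as those of NFKBIA, with cold replicate 3 highest and cold replicate 1 lowest. The change was 0.70 ± 0.41 (SE, limma p = 0.115, exact permutation p = 0.19), and leaving out cold replicate 3 or cold replicate 1 gave 0.24 or 1.08. NFKBIE, TNIP1 and NFKBIB changed by 0.12, 0.08 and 0.02.

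The pairs of these 3 genes were picked after their values were seen, so their correlations across the 10 arrays are given as a description, without a test. Pearson's r was 0.879 for NFKBIA and TNFAIP3 (Spearman's rho 0.891), 0.844 for NFKBIA and NFKBIZ (rho 0.806) and 0.808 for TNFAIP3 and NFKBIZ (rho 0.903). These values pool both groups, and the arrays share dye and reference pool. Without the 2 arrays farthest from the median of the first gene, r was 0.823, 0.838 and 0.617. Within the 6 controls r was 0.885, 0.703 and 0.402 in the same order, and the 4 cold arrays were too few for a value of their own.

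Single animals differed in how much of the group they showed. Cold replicate 3 was the highest of all 10 arrays for 20 of the 39 genes (51.3%), against 19.1% of all genes, and its median deviation from the control mean was 0.32. The median deviation was 0.12 in cold replicate 1, 0.03 in cold replicate 2 and 0.19 in cold replicate 4. Cold replicate 3 also had the highest monocyte marker mean, 1.10, and the lowest T cell mean, -0.76, whose part in its values was not tested. Control replicate 6 was the lowest of all arrays for 16 genes (41%), against 10.5% of all genes. Without cold replicate 3 the median change of the 39 genes was 0.14 and 30 of them were above 0. The SD was larger in cold than in control for 27 of the 39 genes (69.2%), against 62.9% of all genes.

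Other genes of the pathway were followed from a list of 103 symbols, of which 51 were tested. In cold 33 were higher and 18 lower, with a median change of 0.15. At an unadjusted limma p under 0.01, 7 passed as higher and 1 as lower (15.7% of the 51, against 8.64% of all genes), and 5 had groups that did not overlap (9.8%, against 5.22%). The adjusted p of these genes in limma was 0.0736 or more.

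The co-receptors of TLR4 were among them. LY96 encodes MD-2, the protein that binds lipopolysaccharide beside TLR4. It ran from 0.12 to 0.54 in control (median 0.28) and stood at 0.94, 0.61, 1.52 and 0.85 in cold, without overlap, with a change of 0.66 ± 0.16 (SE, limma p = 0.00143, exact permutation p = 0.00476, the smallest that 10 arrays allow). CD14, which hands lipopolysaccharide to that complex and also marks monocytes, changed by 0.66 ± 0.19 (SE, limma p = 0.00622, exact permutation p = 0.0143). TLR4 itself changed by 0.47 ± 0.15 (SE, limma p = 0.011, exact permutation p = 0.0286).

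LTBR, the lymphotoxin beta receptor, which signals through the non-canonical NF-kB route, ran from -0.50 to -0.0008 in control (median -0.34) and stood at 0.27, 0.50, 0.97 and 0.04 in cold. The groups did not overlap, and the change was 0.74 ± 0.17 (SE, limma p = 0.0011, exact permutation p = 0.00476). IL1R2, the decoy receptor for interleukin-1, had the largest change of those that passed, 1.31 ± 0.41 (SE, limma p = 0.00816, exact permutation p = 0.019). Its control mean was -2.02 ± 0.53 (SD, n = 6), against -0.72 ± 0.98 (SD, n = 4) for cold.

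Among kinases and adaptors, MAP3K8, a kinase that the NFKB1 precursor holds inactive, changed by 0.46 ± 0.13 (SE, limma p = 0.00423, exact permutation p = 0.00952) and did not overlap between groups. TRADD, the adaptor of TNFRSF1A, changed by 0.42 ± 0.12 (SE, limma p = 0.00613, exact permutation p = 0.019), and this was -0.13 relative to all genes under median centring and -0.03 in the deposited value table. TNIP2, a partner of A20, changed by 0.39 ± 0.12 (SE, limma p = 0.00827, exact permutation p = 0.019). MAP3K7, which encodes TAK1, the kinase between TRAF6 and the IKK complex, was the 1 lower gene. Its ratio ran from -0.11 to 0.15 in control (median -0.04) and stood at -0.52, -0.37, -0.28 and -0.28 in cold, with no overlap. The change was -0.34 ± 0.08 (SE, limma p = 0.00124, exact permutation p = 0.00476), and all 8 probes were lower. Of the 22 alternatives, LTBR and LY96 passed 0.01 in 20, MAP3K7 in 18, MAP3K8 in 16, CD14 in 12, TRADD and IL1R2 in 11 each and TNIP2 in 10. LTBR, LY96 and MAP3K7 passed in all 10 omissions of 1 array, MAP3K8 in 7, TRADD, CD14 and IL1R2 in 4 each and TNIP2 in 3, and relative to all genes under median centring LTBR changed by 0.18 and CD14 by 0.03. MAP3K7 did not pass with Cy3 alone (-0.17), with median centring (-0.22 relative to all genes) or in the deposited value table (-0.30), and LTBR passed neither under median centring nor in that table (0.33). LY96 fell short with the processed signals (0.69) and in that table (0.73), and was 0.36 without the filter on dim probes, MAP3K8 was 0.27 with the processed signals, and TNIP2 was 0.19 where both dyes had to be bright. Without cold replicate 3, CD14 changed by 0.48, IL1R2 by 0.89, TRADD by 0.35 and TNIP2 by 0.30, none of them past 0.01.

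Of 12 tested NF-kB target genes (21 listed), 11 were higher in cold, with a median change of 0.43, where 48% of all genes were higher. None passed 0.01 and 5 passed 0.05 in limma without adjustment, as 24.7% of all genes did. They were SOD2, mitochondrial superoxide dismutase, at 0.75, the stress gene GADD45B at 0.71, the AP-1 gene JUNB at 0.50, IL1RN, the interleukin-1 receptor antagonist, at 0.49, and BCL2A1, an inhibitor of apoptosis, at 0.47, with exact permutation p of 0.0429, 0.0524, 0.0762, 0.0429 and 0.0524. Of 4 tested genes in a list of other sensors, 3 were lower in the mean, with a median change of -0.24. The higher one was CLEC7A, the receptor for beta-glucan of fungi, by 0.58 (exact permutation p = 0.0238). That list leaves out the sensor TLR4, grouped here with its co-receptors, which was higher by 0.47.

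**Figure D4:**
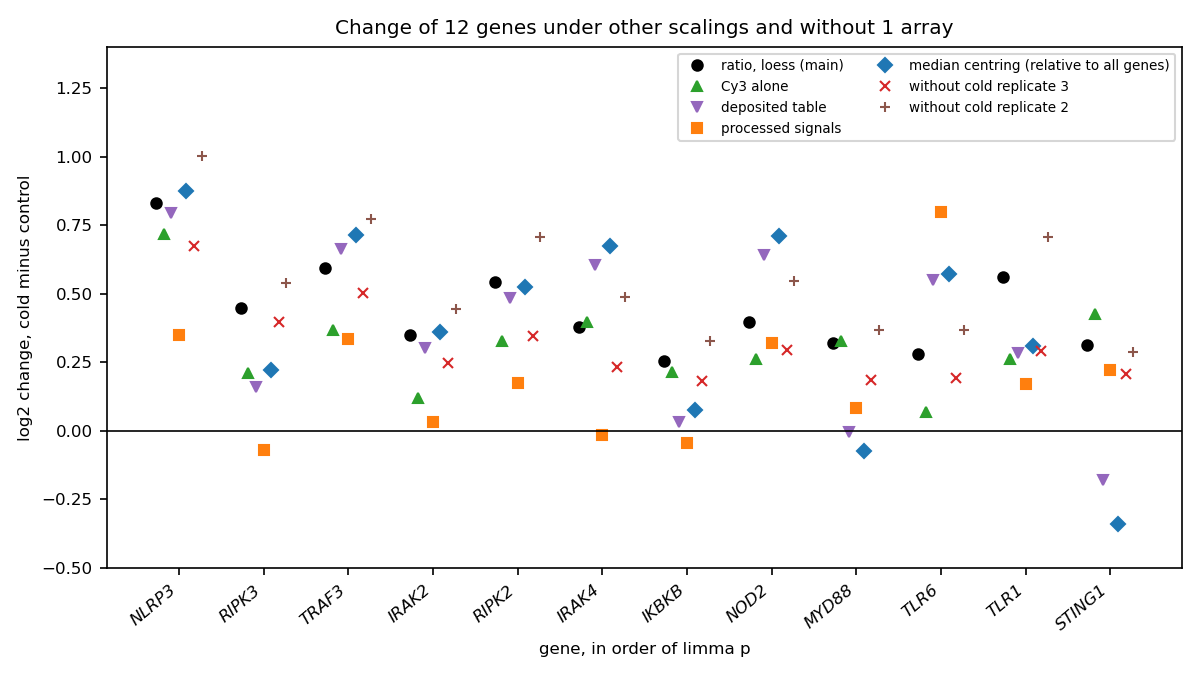
Log2 change, cold minus control, of the 12 genes with the lowest limma p among the 39, under the main processing (black circles), 4 other scalings of the arrays, and without cold replicate 2 or cold replicate 3. NLRP3, TRAF3, IRAK2, RIPK2, NOD2, TLR6 and TLR1 stay above 0 throughout, and RIPK3, IRAK4, IKBKB, MYD88 and STING1 fall below 0 under at least 1 scaling.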

How the data were processed

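PBMC RNA of 6 control and 4 cold ferrets was hybridised, 1 ferret per array, to 10 2-colour Agilent arrays on separate slides. The authors deposited spot intensities of both dyes from Agilent Feature Extraction 10.7.3.1, as median brightness and local background and as background-subtracted, dye-normalized signals, with flags for spots well above background. A further deposited table gives 1 log2 value for each sequence and array, which set against the scanner files correlated with the uncorrected log2 ratio of Cy3 to Cy5 at r = 1 on each array. Its constants per array and sequence are of unknown origin.

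In R 4.3.3, limma 3.58.1 was used to correct background by normexp with an offset of 50, and ratios were normalized within arrays by loess (span 0.3, 4 iterations). Outlier spots were dropped, and means were taken over the spots of each probe and then over probes per gene. Probes had to have Cy3 signal flagged well above background, in a share of spots of 0.5 or more, on 4 or more arrays. Of 45328 target sequences, 21104 were named through a RefSeq gene table. After the filter 111051 probes of 26303 genes remained, 9276 of them with a symbol, and 2 genes with missing values were left out. No coordinates or sequences are given.

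The test of cold against control was limma (lmFit, then eBayes) fitted over all genes, with Benjamini-Hochberg adjustment at 0.05, and at the unadjusted 0.01 of the methods. Single genes also had a two-sided exact permutation test over the 210 splits of the arrays. The number of arrays limits the precision. The fit was tested on simulated data. The genes and lists were chosen with earlier results of these data known. Genes given on every array were those past 0.01 or without overlap, filled in order of p to 12, with CGAS, NFKBIA, TNFAIP3 and NFKBIZ added after their values were seen, and of the other pathway genes up to 8 past 0.01. Results were recomputed with the processed signals, no background subtraction, median centring, Cy3 alone, the deposited table, 3 other filters, the median over probes, the methods' t-test, the replicate number or slide position as a block, and leaving out each array. Another 2 scalings were added after seeing the data.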

Additional observations from a re-analysis of the deposited data

Results flagged for a closer look

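In 4 of 78 groups of arrays (39 genes, control and cold), 1 array stood far from the others by Dixon's criterion, which chance meets in about 1 in 20 groups. TLR7 was at 0.184 in cold replicate 4, below the other cold arrays at 0.268 to 0.276. IRAK4 was at 0.692 in control replicate 5, where the nearest control was at 0.372. TRAF6 was at 0.551 in control replicate 4, with the nearest control at 0.364. TAB1 was at 0.639 in cold replicate 3, with the nearest cold array at 0.0366, and the cold array farthest from it was at 0.0218.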

How the results depend on the processing

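Among the 39 genes, those higher in cold at an unadjusted p under 0.01 numbered 4 in the main processing, 1 with the processed signals (CGAS), 0 with median centring, 3 with Cy3 alone (IRAK4, NOD1 and NLRP3), 1 with the deposited table (NLRP3) and 1 with the methods' t-test (RIPK3). REL was the 1 lower gene with median centring, where all genes shift down (relative to them REL changed by -0.27 and did not pass). Groups without overlap, 0 in the main processing, numbered 1 with the processed signals, with median centring, with Cy3 alone and without the filter. Their share over all genes was computed for the main processing only (5.22%). The median change, 0.19, was 0.069 with the processed signals, 0.079 with Cy3 alone and -0.30 with median centring, where 14 genes lay above 0 and the median of all genes was -0.43. After each array was also centred on the median of all genes, a choice made after seeing the data, it was 0.089 with NLRP3, TRAF3 and IRAK4 past 0.01, and for the processed signals so centred 1 gene passed and 1505 of all genes did. Of all genes, 2272 passed 0.01, and 1505 with the processed signals, 1163 with median centring, 1093 with the deposited table and 1726 with the methods' t-test, none of which passed Benjamini-Hochberg adjustment. The lower ones made up 39.7% of these calls in the main processing, 57.5% with processed signals, 81.5% with median centring and 53.8% in the deposited table, and 39.3% and 45.2% with processed signals and median centring once arrays were centred on all genes. All genes past adjustment numbered 741 with Cy3 alone, 115 with Cy3 above background on all 10 arrays and 5 with slide position as a block. The cause of these differences was not tested.

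Leaving out 1 array at a time gave 0 to 7 higher and 0 to 1 lower of the 39 genes at 0.01, 0 to 4 past adjustment, 0 to 5 without overlap, 30 to 34 above 0 and a median of 0.14 to 0.27, and 1275 to 3386 of all genes at 0.01 and 0 to 1272 past adjustment. Fewer arrays make groups without overlap easier to reach, and their share over all genes was not computed for these omissions. Among the 12 genes with the lowest p and the 8 other pathway genes named, signs turned for IRAK4 (-0.016), RIPK3 (-0.070) and IKBKB (-0.043) with the processed signals, for MYD88 (-0.075), STING1 (-0.34) and TRADD (-0.13) relative to all genes with median centring, and for MYD88 (-0.0049), STING1 (-0.18) and TRADD (-0.026) in the deposited table. With the replicate number as a block 3 genes passed 0.01 and the median change was 0.19. Equal numbers did not pair the samples (correlations -0.301, 0.543, 0.0963 and -0.189). With slide position as a block 4 passed, RIPK2 in place of IRAK2, and within positions 1 and 2 NLRP3 changed by 0.92 and 0.59, RIPK3 by 0.39 and 0.46, TRAF3 by 0.57 and 0.56 and IRAK2 by 0.23 and 0.47. Cy5 was weaker in control than in cold, and its effect on the ratios of dim genes was not tested.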
